A study of Mytilus galloprovincialis with 18 samples.

Results

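Translation elongation factors were represented on the mussel cDNA array by 7 probes in 14 of its 3840 spots, 3 for EF1 alpha, 1 for EF1 gamma, 1 for EF1 delta and 2 for EF2. They were chosen by their descriptions in the study's probe tables, which describe 434 probes that had been selected on these same samples for a change at 1 or more metal doses. The tables hold 6 of the 7 probes at 200 nM, 1 of them, EF1 gamma, also at 100 nM, and 1 probe of EF2 at 50 nM only. The values at those doses are therefore a description, and tests are given only at doses for which a probe was not listed. The gill RNA of 9 adult mussels (Mytilus galloprovincialis) was hybridised, 3 mussels at each of 50, 100 and 200 nM of an equimolar mixture of Cd, Cu and Hg chlorides after 48 h. RNA from the gills of 5 control mussels was mixed into 1 pool, the reference on all arrays, and each mussel was measured on array A and, with Cy3 and Cy5 exchanged, on array B. Each dose group was kept in a tank of its own, as were the controls, so that tank and dose cannot be told apart, and the spread between control mussels is not measured.

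During elongation, EF1 alpha carries each aminoacyl-tRNA to the ribosome as a complex with GTP. EF1 delta belongs to the exchange factors that reload EF1 alpha with GTP, and EF1 gamma is the structural subunit that holds this exchange complex together. EF2 then moves the ribosome along the mRNA by the next codon. These transcripts are abundant in most animal cells, and EF1 alpha is often used as a reference gene in quantitative RT-PCR, so their stability under metal exposure is of practical interest.

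Values are log2 ratios of the mussel over the control pool, where 0 means equal signal. Each array was centred by an intensity-dependent fit over all its probes, so a ratio tells how a transcript stood relative to the other probes. Arrays were of unequal quality, and between 94.3 and 100% of spots in the test channel and 89.3 and 100% in the reference channel exceeded local background by 2 SD. The third mussel at 50 nM ran against the other 8, with correlations over all probes that ranged from -0.31 to 0.061 among arrays A (mean -0.15) and from -0.25 to 0.028 among arrays B (mean -0.14). Its direction is therefore not settled, and the results that rest most on it are given also with its sign turned. In whole gill RNA, fewer cells of a type and less RNA per cell cannot be told apart.

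At 200 nM all 7 probes had positive mean ratios, and all 21 values, 7 probes in 3 mussels, lay above 0. The median of the 7 probe means was 0.57 (from 0.15 to 0.71), against -0.022 over all probes of the array and 0.16 over the described ones. At 100 nM the median was 0.14 (-0.17 to 0.24), with 12 of 21 values above 0, and at 50 nM it was -0.085 (-0.17 to 0.36), also with 12 of 21. All 3 mussels were above 0 for 7 of 7 probes at 200 nM and for 1 at each lower dose, while 21.2%, 18.9% and 10.1% of all probes met that condition at these doses. Since 6 of the probes were picked for their change at 200 nM, nothing is read from the first of these counts.

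The 3 probes of EF1 alpha had the highest ratios among the elongation factors at 200 nM. Myt01-011G02, most similar to the Mytilus edulis sequence, had 0.50, 0.66 and 0.89 in the 3 mussels at 200 nM (mean 0.68 ± 0.19, SD, n = 3), which is 1.60-fold. At 100 nM the same probe had 0.11, 0.39 and -0.082, and at 50 nM 0.22, 0.13 and -0.68. The 200 nM mussels were above all other mussels, and the third 50 nM mussel stood far below the rest. Myt01-014G06, also most similar to M. edulis, had 0.64, 0.69 and 0.79 at 200 nM (0.71 ± 0.074, SD, n = 3, 1.63-fold). It had -0.032, 0.51 and 0.11 at 100 nM and 0.31, 0.023 and -0.69 at 50 nM. Its 200 nM values were the closest to each other of all 7 probes. Myt01-014A02, a partial sequence most similar to Mytilus californianus, had 0.48, 0.61 and 0.83 at 200 nM (0.64 ± 0.17, SD, n = 3, 1.56-fold). At 100 nM it had -0.29, -0.074 and -0.15, and at 50 nM 0.27, 0.41 and -0.62. In contrast to the other probes of EF1 alpha, all of its 100 nM values were below 0, and they did not overlap with those at 200 nM. The value of the second 100 nM mussel was below 0 only through array A (-0.455, against 0.31 on array B), where the spot pair differed by 1.26. Its sign is therefore not settled. The file of this array A also listed its spots in another order. The 3 probes belong to different sequence clusters of the mussel database (MGC00145, MGC02814 and MGC02922) but share a target name, and cross-hybridization between them is possible, so they are not replicates of each other.

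**Figure D1:**
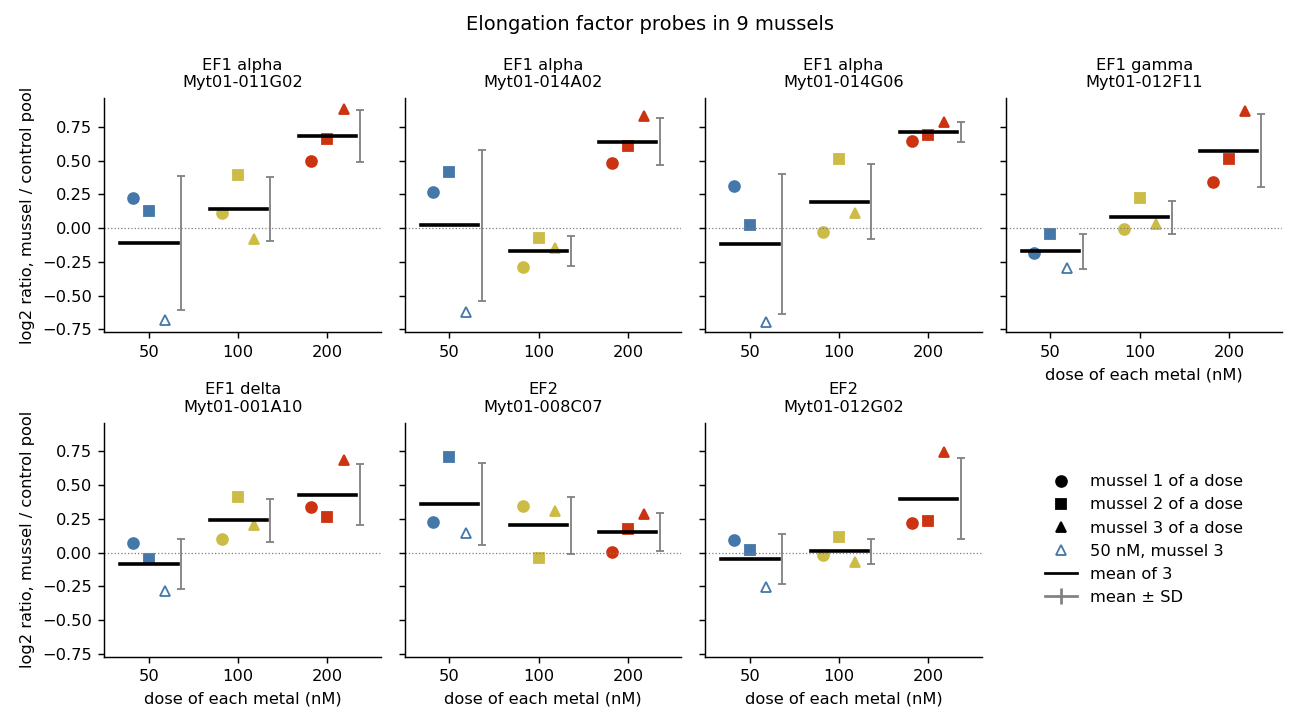
Log2 ratio of mussel over control pool (vertical axis) for the 7 elongation factor probes at 50, 100 and 200 nM of each metal (horizontal axis). Each symbol is 1 mussel (mean of arrays A and B), the open triangle is the third 50 nM mussel, black lines are means and grey bars mean ± SD of 3 mussels. All 21 values at 200 nM lie above 0, and the open triangle is the lowest 50 nM value of every panel, from -0.69 for EF1 alpha Myt01-014G06 to 0.15 for EF2 Myt01-008C07.

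EF1 gamma (Myt01-012F11, most similar to the tick Ixodes scapularis) had the lowest mean of the 7 probes at 50 nM, with -0.18, -0.041 and -0.30 in the 3 mussels (-0.17 ± 0.13, SD, n = 3). It had -0.0088, 0.22 and 0.027 at 100 nM and 0.34, 0.51 and 0.87 at 200 nM (0.57 ± 0.27, SD, n = 3, 1.49-fold). As labelled, the mussels of the 3 doses did not overlap, each dose lying above the one before. However, the 2 upper doses are those at which the probe had been listed. In the authors' processed values the 50 and 100 nM mussels overlapped, with 0.034, 0.18 and -0.48 against 0.27, 0.30 and 0.16. With the third 50 nM mussel turned it had 0.30, above all mussels at 100 nM, and the difference between the means of 100 and 50 nM went from 0.25 to 0.055. EF1 delta (Myt01-001A10, most similar to Xenopus laevis) had 0.34, 0.26 and 0.69 at 200 nM (0.43 ± 0.23, SD, n = 3, 1.35-fold), 0.098, 0.41 and 0.21 at 100 nM and 0.075, -0.046 and -0.28 at 50 nM. It was the only one of the 7 probes with all 3 mussels above 0 at 100 nM. Here the 100 and 200 nM mussels overlapped, while both were above the 50 nM mussels as labelled. Turned, the third 50 nM mussel had 0.28 and lay among those of 100 and 200 nM. For neither EF1 gamma nor EF1 delta was the share of all probes with 100 nM above 50 nM without overlap counted.

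The 2 probes of EF2 differed from each other in their course over the doses. Myt01-012G02, most similar to the flounder Pseudopleuronectes americanus, had 0.22, 0.23 and 0.74 at 200 nM (0.40 ± 0.30, SD, n = 3, 1.32-fold). It had -0.015, 0.115 and -0.067 at 100 nM and 0.095, 0.021 and -0.26 at 50 nM, so that the 200 nM mussels were above all the others. The highest of them, the third, was also the highest 200 nM mussel for the other 6 probes. Myt01-008C07, most similar to EF2b of Drosophila melanogaster, had its highest values at 50 nM, with 0.23, 0.71 and 0.15 (0.36 ± 0.30, SD, n = 3, 1.29-fold). It had 0.34, -0.040 and 0.31 at 100 nM and 0.0060, 0.17 and 0.29 at 200 nM. Its 3 doses overlapped, and 8 of its 9 mussels were above 0. Within a mussel, the ratio of Myt01-012G02 minus that of Myt01-008C07 was -0.13, -0.69 and -0.40 at 50 nM, -0.36, 0.16 and -0.37 at 100 nM, and 0.22, 0.059 and 0.46 at 200 nM. As labelled, the difference was negative in each mussel of the lowest dose and positive in each of the highest, but it was 0.40 in the third 50 nM mussel when turned. Each probe had been listed at the dose where it was the higher, and the change of sign was not tested.

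Tests were run at 13 of the 21 combinations of probe and dose, those at which the study had not listed the probe. A probe not listed had already failed the study's own test on the same mussels, so these tests cannot show that it was unchanged. None passed an adjusted p under 0.05 in limma (0.576 to 0.993), and none had an unadjusted p under 0.05, the smallest being 0.109. At 50 and 100 nM 0% of all probes passed, although 72 and 183 of them had an unadjusted p under 0.05. The clearest of the 13 was EF1 delta at 100 nM, at 0.24 ± 0.16 (SD, n = 3, 3 of 3 mussels above 0, SE 0.14, adjusted p = 0.576 from limma). EF2 Myt01-008C07 had 0.20 ± 0.21 at 100 nM and 0.15 ± 0.14 at 200 nM (SD, n = 3, SE 0.15, adjusted p = 0.643 and 0.673 from limma). For the 3 probes of EF1 alpha the standard error at a dose was 0.18, so changes of the size seen for EF1 delta could not be told from 0 with 3 mussels. With the third 50 nM mussel turned, the lowest adjusted p of the 13 was 0.26, for EF1 alpha Myt01-014A02 at 50 nM. At 200 nM 2.03% of all probes (39) passed, none of them an elongation factor, and since the lists rest on that contrast nothing is read from this count.

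Between doses, 6 differences used only doses at which the probe was not listed, and the doses share the control pool. As for the tests against the pool, a probe not listed had already failed there, so no lack of change can be shown. None of the 6 differences passed in limma. Over all probes 0% passed for 100 against 50 nM or 200 against 100 nM, where 85 and 113 had an unadjusted p under 0.05. EF1 delta was 0.33 higher at 100 than at 50 nM, without overlap between the mussels (0.24 against -0.085, SE 0.20, adjusted p = 0.998 from limma). The share of all probes with this order was not counted, so nothing is read from it. With the third 50 nM mussel turned the difference was 0.14 (adjusted p = 0.975 from limma) and the mussels overlapped. EF2 Myt01-008C07 differed by -0.048 between 200 and 100 nM (SE 0.21, adjusted p = 0.974 from limma). As a description, the 3 mussels at 200 nM were all above those at 50 nM for 6 of the 7 probes. They were all above those at 100 nM for 5, where 7.24% and 7.5% of all probes had these orders. Since 6 of the probes were picked for their change at 200 nM, nothing is read from these counts.

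The values at the lowest dose depended on the third 50 nM mussel. Its ratios for EF1 alpha were -0.68, -0.62 and -0.69, against 0.023 to 0.41 in the other 50 nM mussels, and only EF2 Myt01-008C07 was above 0 in it. With its sign turned, all 7 probes had positive means at 50 nM and their median went from -0.085 to 0.26. The 3 EF1 alpha means became 0.34, 0.435 and 0.34, that of EF1 gamma 0.024 and that of EF1 delta 0.10. The order of 200 nM above 50 nM without overlap was then left for 1 of the 7 probes, EF1 gamma, where 5.99% of all probes had it.

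Apart from EF2 Myt01-008C07, the elongation factor probes varied together over the 9 mussels. Among the 3 probes of EF1 alpha, Pearson's r of the log2 ratios was 0.84 to 0.97 over the 9 mussels, and it was 0.86 to 0.92 after the mean of each dose was taken away. EF2 Myt01-012G02 had r of 0.83 to 0.90 with the EF1 alpha probes, 0.92 with EF1 gamma and 0.88 with EF1 delta. EF2 Myt01-008C07 had r from -0.31 to 0.135 with the other 6 probes, and -0.081 with the other probe of EF2. After the dose means were taken away its r with the other 6 was positive, from 0.033 to 0.53, and with the third 50 nM mussel turned it was -0.68 to -0.12. Over all 21 pairs the median r was 0.84, and 0.77 with the third 50 nM mussel turned, against -0.0010 over all pairs of probes on the array. These are descriptions without a test, since all values share the pool, the 2 arrays of a mussel share a slide, and most of the probes were picked for the same dose. Without the 2 mussels farthest from the median, r between EF1 alpha Myt01-014A02 and EF1 delta went from 0.66 to -0.028, so this relation rests on those mussels.

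**Figure D2:**
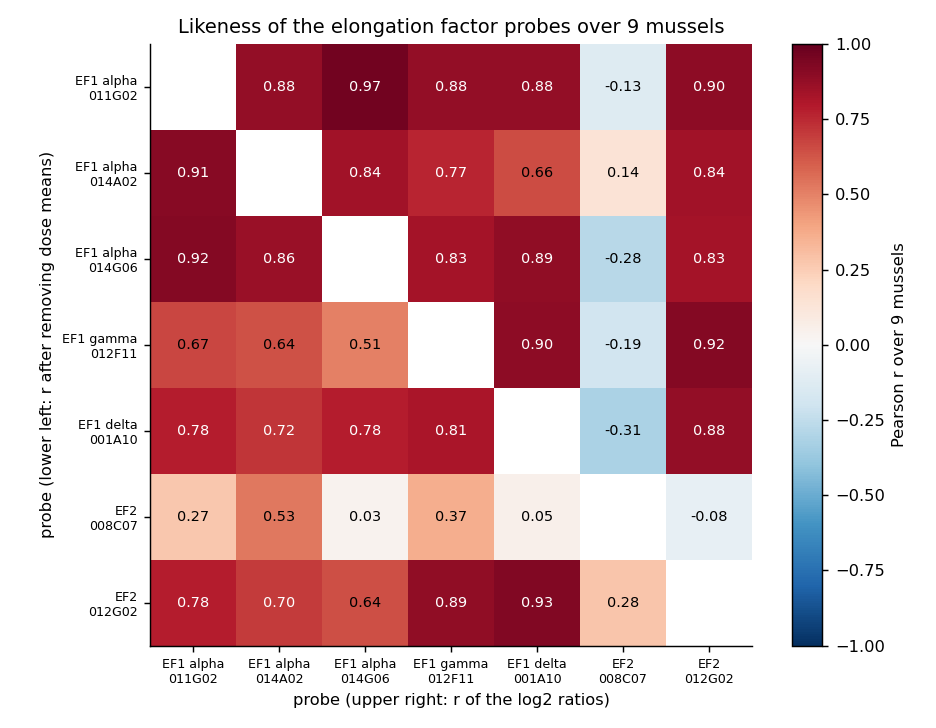
Pearson r between the 7 elongation factor probes over 9 mussels, from the log2 ratios (upper right) and after the mean of each dose was taken away (lower left), on a colour scale from -1 (blue) to 1 (red). EF2 Myt01-008C07 has r from -0.31 to 0.135 in the upper part and from 0.033 to 0.53 in the lower, where the 3 EF1 alpha probes have 0.84 to 0.97 and 0.86 to 0.92.

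The probe most like the mean of EF1 alpha over the 9 mussels was an axonemal dynein light chain p33 (Myt01-006E09, r = 0.97), a component of the motor of cilia. Ribosomal protein rps27 (Myt01-014G01), of the small ribosomal subunit, followed with r = 0.96, then Myt01-018A07, Myt01-010E12 and Myt01-015E08, all without similarity, with r of 0.94, 0.94 and 0.93. With the third 50 nM mussel turned, rps27 came first (r = 0.95) and the dynein was number 3 (r = 0.91), while Myt01-018A07, Myt01-010E12 and Myt01-015E08 were number 7, 15 and 9. The axonemal dynein Myt01-006E09 had 0.77, 0.68 and 0.80 in the 200 nM mussels. It was the only one of 7 cilia and microtubule probes with a mean above 0 there. Another probe of the same description, Myt01-011H07, had the lowest mean of these 7 at 200 nM, -0.915. Closest to EF1 gamma were EF2 Myt01-012G02 (r = 0.92), the undescribed Myt01-007G03 (r = 0.91) and ribosomal protein rpl7a (Myt01-010C09, r = 0.90). Closest to EF2 Myt01-012G02 were the undescribed Myt01-009D02 (r = 0.95), EF1 gamma and the undescribed Myt01-010H12 (r = 0.91). The 3 closest to EF2 Myt01-008C07, Myt01-004F05, Myt01-009A07 and Myt01-010F11 (r = 0.93, 0.91 and 0.87), are not described in the study's tables. Among the other 1917 probes, EF2 Myt01-012G02 was number 8, EF1 gamma number 21 and EF1 delta number 30 in likeness to EF1 alpha, and EF2 Myt01-008C07 number 1019. Turned, they were number 10, 13, 62 and 1632.

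As candidates for reference genes the probes can be set side by side by their spread over the 9 mussels. All 9 were exposed, so this spread does not measure a shift from control that they share. EF2 Myt01-008C07, for example, had a mean of 0.24 as labelled, with 8 of 9 above 0. The paper found EF1 and EF2 differentially expressed and for that reason judged them unsuitable as reference genes. The order by spread depended on the direction of the third 50 nM mussel. As labelled, EF2 Myt01-008C07 had the smallest SD, 0.22, and 21.5% of all probes had a smaller one. EF2 Myt01-012G02 and EF1 delta had 0.28 each and EF1 gamma 0.37, with 42.7%, 43.2% and 70.4% of probes below them. The 3 EF1 alpha probes had 0.46, 0.47 and 0.47, more than 85.9%, 88.1% and 87.4% of probes, where the median SD of all probes was 0.30. With that mussel turned, the smallest SD was that of EF1 delta, 0.21, followed by EF2 Myt01-012G02 with 0.24 and EF2 Myt01-008C07 with 0.25, where 21.5%, 30.5% and 35.9% of probes were below. EF1 alpha Myt01-011G02 and Myt01-014G06 and EF1 gamma then had 0.32 each, with 59.6%, 59.9% and 62.3% below, and EF1 alpha Myt01-014A02 had 0.39, with 79.2% below. Within doses the 3 EF1 alpha probes had 0.34 each as labelled, with 64.4 to 66.6% of probes below, and 0.25, 0.16 and 0.26 turned, with 36.8%, 9.69% and 39.9% below. EF1 gamma had 0.19 within doses as labelled, with 17% of probes below, and 0.22 turned, with 28.2% below. The choice of the probes enters this order too, as the probes listed at 200 nM had to differ from the pool there.

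The probes were not chosen for a difference between the dye orientations. Whether the spread between arrays A and B entered the study's selection is not known. Array A minus array B was negative on average for all probes except EF1 delta, from -0.27 ± 0.52 (SD, n = 9) for EF1 alpha Myt01-014G06 to -0.070 ± 0.46 for EF2 Myt01-008C07, with array A higher in 2 or 3 of the 9 mussels. EF1 delta had 0.034 ± 0.23, with array A higher in 5. None of the 7 differences passed in limma (adjusted p from 0.454 to 0.914). Over the whole array 0% of probes passed, and 269 had an unadjusted p under 0.05. At 200 nM the 3 EF1 alpha probes had 0.54, 0.44 and 0.52 on arrays A and 0.82, 0.84 and 0.90 on arrays B. When the arrays were only centred on their median, without the intensity-dependent fit, array A was lower than array B by 0.51 to 0.78 for 6 probes and these passed (adjusted p from 0.0172 to 0.0454 in limma), as did 23.1% of all probes, while EF1 delta had -0.48 (adjusted p = 0.0534).

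**Figure D3:**
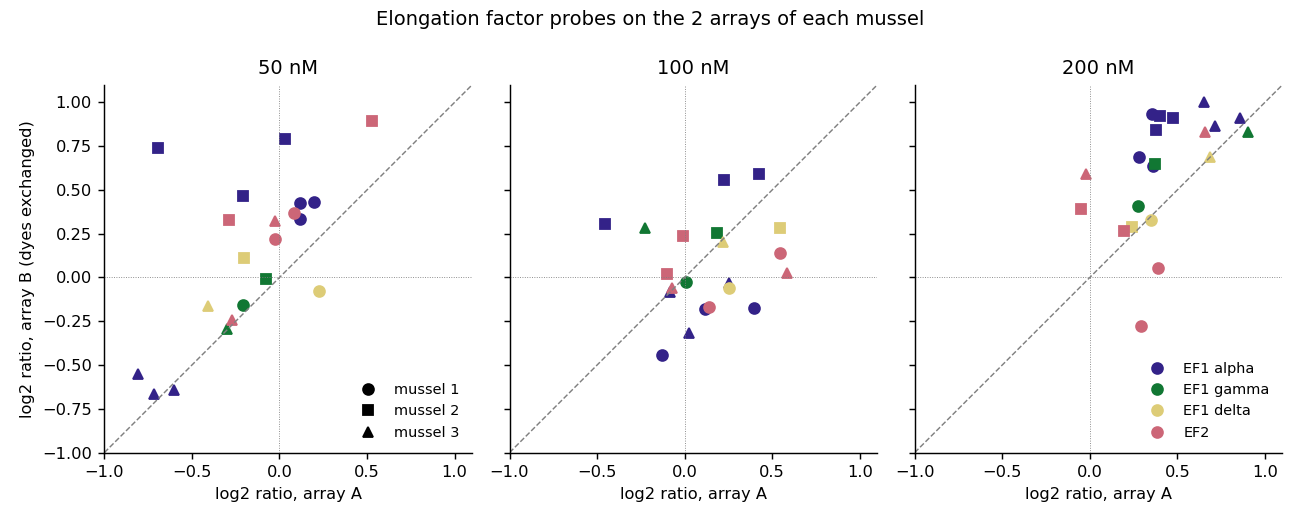
Log2 ratio on array B (vertical axis, dyes exchanged) against array A (horizontal axis) for the 7 elongation factor probes in the 3 mussels of each dose, 1 panel per dose. Colours are factors, symbols are mussels and the dashed line marks equal values. At 200 nM the EF1 alpha points lie above the line, with means of 0.44 to 0.54 on arrays A and 0.82 to 0.90 on arrays B, and in the third 50 nM mussel they are negative on both arrays.

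All 36 spots of each probe, 2 on each of the 18 arrays, were more than 2 SD above background in both channels. In the test channel their median intensity was 7.05 times the local background for EF1 delta, the faintest, and 25.7 to 137 times for the others, where the median of all spots was 3.42. The pairs of spots were close, with a median difference of 0.051 to 0.14 in log2 ratio against 0.26 over all probes. The exception was EF1 alpha Myt01-014A02 on array A of the second 100 nM mussel, where the pair differed by 1.26. Saturated spots occurred only for EF1 alpha Myt01-011G02 and EF2 Myt01-012G02. Of the 12 spots at 200 nM, 3 of the first and 6 of the second were saturated in the mussel's channel, and 1 of the second in the reference channel too, and the effect of this on their ratios was not tested.

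The other probes of protein synthesis had been selected by the study on the same samples, so that their ratios are not independent evidence. Of 35 ribosomal protein probes, 32 are listed at 200 nM, where 33 had a mean above 0, with a median of 0.34. The lowest was S24 (-0.44 ± 0.14, SD, n = 3), whose description also names MRP S24, a mitochondrial ribosomal protein. The highest was rps27 (0.75 ± 0.072), while rpl7a, of the large subunit (0.57 ± 0.038), was the 1 that passed in limma. Their median was 0.081 at 100 nM and -0.10 at 50 nM, or 0.084 at 50 nM with the third mussel turned. Mussel by mussel at 200 nM the ribosomal median was 0.29, 0.245 and 0.45 and that of the elongation factors 0.34, 0.51 and 0.79, and both were highest in the third mussel. In the third 50 nM mussel they were -0.23 and -0.30 as labelled, the lowest of the 9 mussels for both, and 0.23 and 0.30 when turned, above all 100 nM mussels. Elongation factors thus had the larger median in each 200 nM mussel, a difference that was not tested.

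Of 5 probes for initiation factors and poly(A)-binding protein, 4 had a mean above 0 at 200 nM and none passed. Their median was 0.24, 0.29 and 0.42 at the 3 doses, with 0.54 at 50 nM when the third mussel was turned. The highest at 200 nM was initiation factor 4A-II (0.98 ± 0.24), the RNA helicase of cap-dependent initiation, and the lowest was subunit B of initiation factor 3 (-0.18 ± 0.34, SD, n = 3). The 4 probes for tRNA synthetases and tRNA modification had medians of 0.11 (0.054 turned), 0.0545 and 0.40 at the 3 doses. They ranged at 200 nM from -0.83 ± 0.81 for a cytoplasmic leucine-tRNA ligase to 0.57 ± 0.22 for mitochondrial aspartyl-tRNA synthetase 2. Another probe of this list, described as leucyl-tRNA synthetase (Myt01-003A02), had 0.48 ± 0.36 there. The 6 nuclear ribonucleoproteins, of which most serve in splicing, had medians of -0.011 (0.27 turned), 0.39 and 0.48, with 6 of 6 above 0 at 100 and 200 nM. Here the range at 200 nM was from 0.19 ± 0.16 for heterogeneous nuclear ribonucleoprotein K to 0.76 ± 0.064 for small nuclear ribonucleoprotein associated protein B. No probe of these 3 lists passed in limma at any dose.

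**Figure D4:**
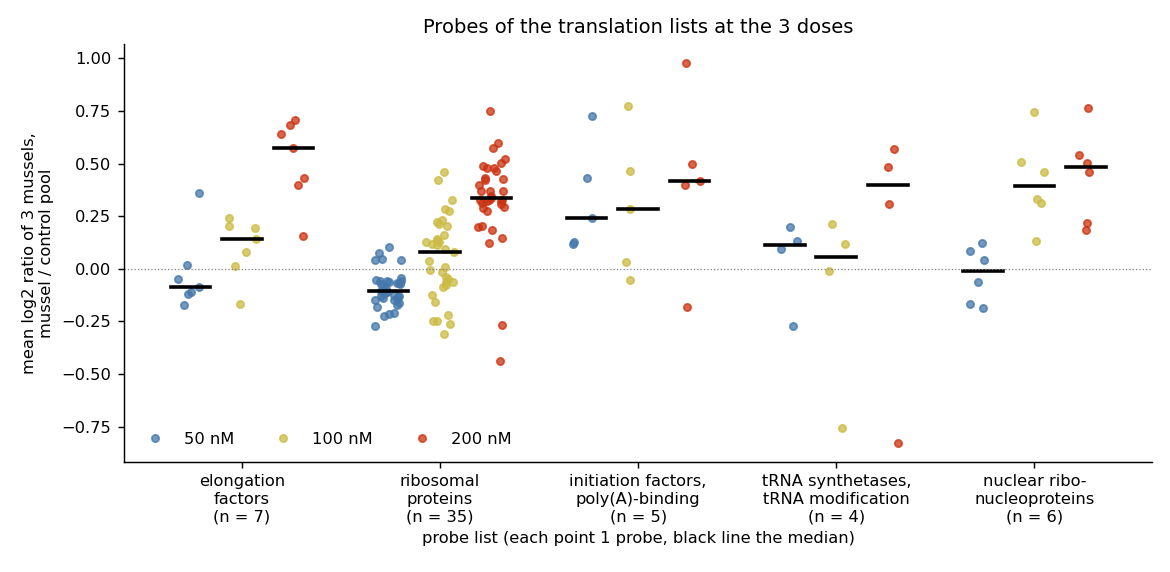
Mean log2 ratio of 3 mussels over the control pool (vertical axis) for the probes of 5 lists of protein synthesis and RNA processing, with 1 point per probe at each dose (colours) and the median as a black line. The median of the elongation factors goes from -0.085 to 0.14 and 0.57 over the 3 doses and that of the ribosomal proteins from -0.10 to 0.081 and 0.34. The values at 50 nM are as labelled, and with the third mussel turned these medians were 0.26 and 0.084.

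Probes that mark particular cell types had likewise been selected by the study on the same samples. At 200 nM 7 of 7 probes of cilia and microtubules and 7 of 9 of haemocytes and defence are listed. For muscle 2 of 3 and for foot and byssus 6 of 9 are listed there. Their ratios are therefore not independent evidence, and differences between doses were not tested for these probes. Those of cilia and microtubules, abundant in the gill epithelium, were above background in all 252 spots of both channels. Their median was -0.17 (-0.11 with the third 50 nM mussel turned), -0.57 and -0.60 at 50, 100 and 200 nM, with mussel medians from -0.57 to 0.056, from -0.67 to -0.54 and from -0.71 to -0.37, and 2, 1 and 1 of 7 were above 0. Haemocyte and defence probes had medians of -0.10 (0.066 turned), -0.26 and -0.31, with mussel medians from -0.18 to 0.19, from -0.37 to -0.19 and from -0.55 to -0.093, and 3, 2 and 3 of 9 above 0. The 3 muscle probes had 0.12 (0.13 turned), -0.20 and -0.024, with mussel medians at 200 nM from -0.36 to 0.37, and the 9 foot and byssus probes had 0.069 (0.055 turned), 0.0043 and -0.25, with -0.32 to -0.076 at 200 nM. Of these lists, 1 probe passed at 200 nM in limma, the C1q domain protein MgC1q89 of the defence list (Myt01-015H10, -0.66). The part of cell composition in the elongation factor ratios was not tested.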

How the data were processed

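The data are 18 two-colour arrays of 9 mussels. The authors deposited scanner files (ScanArray Express) that give, per spot and channel, an intensity and a local background. They also deposited a table of log2 ratios, treated mussel against pool, after total intensity and LOWESS normalization with MIDAS. Each array has 3840 spots, 2 for each of 1920 probes. Here the scanner intensity values were taken through normexp (offset 50) and loess within each array (span 0.3, 4 iterations). Averaging over the spots of a probe and then over its arrays gave each mussel 1 log2 ratio. limma 3.58.1 in R 4.3.3, with statmod 1.5.0 for correlated arrays, fitted 1 mean per dose with Benjamini-Hochberg adjustment over 1920 probes and a threshold of 0.05, and was tested on simulated data. The arrays had median intensities from 361 to 1334 in the test channel and from 245 to 2787.5 in the reference channel, and the number of arrays limits the precision. Because the file of array A of the second 100 nM mussel lists its spots differently, spots were joined by probe ID. Unlike the other arrays A, it had a lower median intensity in the test channel (769) than in the reference channel (2787.5), as arrays B did. Its reference channel had the lowest share of spots above background (89.3%). It entered the 100 nM means and array A minus array B as labelled, and whether its orientation is as labelled was not tested. In the header of 100 nM replicate 1, array A, a different control image is named. The replicates are separate mussels.

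All 7 probes are named, and likeness (5 or 3 closest probes by Pearson's r), the highest and lowest probe of each translation list at 200 nM and probes called there followed a fixed rule. The members and lists were chosen with earlier results of these data known. Alternatives covered background correction, normalization, the authors' values, each dose fitted alone, a replicate block, arrays as a random block, arrays A or B only, a filter on dim probes, the third 50 nM mussel turned, and each mussel left out. Plots were drawn with Python 3.11.15.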

Additional observations from a re-analysis of the deposited data

Results flagged for a closer look

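EF1 alpha Myt01-014A02 was above 0 in all 3 mussels at 200 nM (mean 0.64) and below 0 in all 3 at 100 nM (mean -0.17), a difference of 0.81 on the log2 scale. The second 100 nM mussel, at -0.074, was below 0 only through array A (-0.455, against 0.31 on array B). The spot pair of the probe on that array A differed by 1.26, so the sign of this mussel's value is not settled. The file of that array also listed its spots in another order. EF1 gamma (Myt01-012F11) was above 0 in all 3 mussels at 200 nM (mean 0.57) and below 0 in all 3 at 50 nM (mean -0.17), a difference of 0.75. With the third 50 nM mussel turned, the latter was 0.55. In the authors' processed values EF1 gamma had 0.034, 0.18 and -0.48 at 50 nM, so that not all were below 0. The difference of 200 from 50 nM was 0.75 there. Both probes had been selected by the study at 200 nM, so neither difference was tested.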

How the results depend on the processing

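At 200 nM the median of the 7 elongation factor probes stayed between 0.43 (without 200 nM replicate 3) and 0.69 (without 200 nM replicate 1) under 22 alternatives, and no probe changed sign in 154 values. With 6 of the 7 picked for their change at 200 nM, their sign there was largely given by the choice, and nothing is read from it. At 100 nM the median was 0.015 to 0.23, and 0.015 to 0.15 with single mussels left out, the lowest without 100 nM replicate 2. At 50 nM it was -0.19 to 0.26, and above 0 in 4 alternatives: median centring only (0.13), arrays B only (0.10), without the third mussel (0.17) and with it turned (0.26), where single mussels left out gave -0.18 to 0.17. None of the 13 tests against the pool or of the 6 between doses passed under any alternative (lowest adjusted p 0.26 and 0.712 in limma). These tests cover only doses at which the study had not listed the probe.

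The number of the 7 probes passing at 200 nM, 0 here, was 1 without background subtraction, 3 with plain subtraction, 2 with print-tip loess, 3 in the authors' values, 2 with each dose fitted alone, 6 with the 18 arrays and mussel as a random block, and 4 with the third 50 nM mussel turned. It was 0 to 4 with single mussels left out, being 1 without 50 nM replicate 1 and 4 without 50 nM replicate 3. As 6 of the 7 probes were picked for their change at 200 nM, nothing is read from these counts. The 39 probes passing at 200 nM over the whole array became 61, 97, 78, 108, 65, 164 and 120 in the same 7 settings, 20 with median centring only, 0 on arrays A only, 3 on arrays B only, and 0 to 97 with single mussels left out. At 100 nM, where none passed here, 2, 3, 4, 18 and 15 did with median centring only, in the authors' values, with each dose fitted alone, with the random block and with the mussel turned, and 0 to 9 with single mussels left out, while at 50 nM 2 passed without the third mussel and 5 with it turned. This mussel was singled out for its opposite ratios, so calls gained by turning it are no evidence of a change. The cause of these shifts was not tested. With the replicate block 0 of the 7 probes passed, and 16 over the whole array at 200 nM and 2 at 100 nM. Same-numbered mussels did not deviate together (r from -0.10 to 0.15 over probes), so the numbers were not taken as pairs. Dim probes left out kept all 7.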
